A study of Canis lupus familiaris with 4 samples.

Results

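Ion channel genes were examined in canine mammary ductal carcinoma and in the adjacent non-tumor mammary tissue of the same dogs. The set was every gene of the count tables whose symbol begins as a potassium (KCN), calcium (CACN), sodium (SCN and ASIC), chloride (CLCN, CLCA, CLIC, ANO and CFTR), TRP, PIEZO or P2X channel symbol does. It held 83 of the 11277 genes in the tables, namely 30 potassium, 12 calcium, 7 sodium, 21 chloride and 10 TRP genes, PIEZO2 and the P2X receptor genes P2RX4 and P2RX7. Not every member is a pore, since the names also cover auxiliary subunits, the intracellular regulator KCNRG, the CLCA and CLIC proteins, whose own channel activity is limited or debated, and TRPC4AP, an adaptor protein of TRPC4.

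RNA came from mastectomies of 6 intact female dogs of different breeds, 5 to 14 years old, with tumors that had not spread to nodes or distant sites. Total RNA of 3 samples was pooled for each of 4 libraries, the carcinomas T1 and T2 and the controls C1 and C2, so that an n of 2 counts pools and the spread between single dogs is not seen. By the study's account C1 and T1 hold tissue of one set of dogs (pool 1) and C2 and T2 that of the other set (pool 2). The sources name no drug given before surgery and no engineered allele, and adjacent tissue of a tumor-bearing gland is not tissue of a healthy one.

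Ion channels let ions cross membranes down their gradients. Potassium channels set the resting potential and drive salt and water transport in epithelia, voltage-gated calcium and sodium channels make nerve and muscle cells excitable, and chloride channels serve secretion, volume control and the acidity of vesicles. TRP and PIEZO channels answer to chemicals, heat, lipids and stretch, and in the mammary gland calcium and chloride transport take part in milk secretion.

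Library totals ranged from 3236218 counts (T2) to 35496260 (T1), with 32352002 in C1 and 4027367 in C2, so pool 2 limits the precision for genes with few counts. Levels are given as CPM, counts per 1000000 counts after scaling by the TMM factors, and were not divided by gene length, so they compare libraries and not genes. A count of 0 (taken as at most 3) allows up to 0.102 CPM in C1 and 0.695 CPM in C2, and up to 0.0859 CPM in T1 and 0.892 CPM in T2, a limit that covers counting error only. Calls, higher or lower, needed an adjusted p under 0.05 in edgeR's quasi-likelihood test over all genes and a change of 1 or more on the log2 scale. Errors beside log2 values are standard errors (SE). For a single gene, 2 libraries against 2 allow no exact permutation p (two-sided) smaller than 0.333, and every call therefore depends on edgeR's shared model of the spread. An alternative edgeR fit, with a replicate block for the pool, left 1 residual degree of freedom, against 2 without the block. The very small p-values of that fit are therefore no measure of how strong the evidence is. Marker lists of other cell types moved between the tissues. Of the measured genes, 10 of 11 for skeletal muscle, 4 of 6 for blood endothelium, 4 of 9 for luminal epithelium, 3 of 4 for mast cells, 2 of 6 for T and NK cells and 1 of 7 for macrophages were lower in carcinoma, while 5 of 10 for chondrocytes and 3 of 3 for neutrophils were higher. EdgeR called no measured marker of smooth muscle and myoepithelium (5 of 8 at an unadjusted p under 0.05), basal epithelium (4 of 5), adipocytes (0 of 3) or nerve and Schwann cells (1 of 4). For these lists DESeq2 and the edgeR fit with the replicate block each called 1 basal marker higher, 1 basal marker lower and 1 nerve and Schwann cell marker lower. In such bulk tissue, fewer cells of a type and less RNA per cell cannot be told apart, and the part of cell makeup in the channel results was not tested.

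Carcinoma differed from control in 24 of the 83 channel genes, 9 higher and 15 lower. That is 28.9% of them, against 9.86% of all genes tested. By direction, 10.8% of the channel genes were higher, against 4.62% of all genes, and 18.1% were lower, against 5.24%. The calls ranged from a log2 fold change of −6.01 for KCNU1 to one of 3.04 for KCNH2, and the median of all 83 was 0.22, against 0.03 over all genes. Both carcinoma libraries lay above both controls for 38 of the 83 channel genes, against 3336 of all 11277 genes (29.6%). They lay below both controls for 29 of the 83, against 3161 of all 11277 genes (28%). Together these are 80.7% of the set, against 57.6% of all genes. The number lower depended on C1, without which 8 channel genes were lower and 6 higher. The low-count filter removed none of the 83, but genes with few counts in every library are not in the tables. Of 203 protein-coding channel symbols of this pattern in the dog RefSeq annotation, 82 were in the tables (CACNB4 is measured but has no protein-coding entry under that symbol), and no beta subunit of the sodium channels and no HCN pacemaker channel gene was among them.

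**Figure D1:**
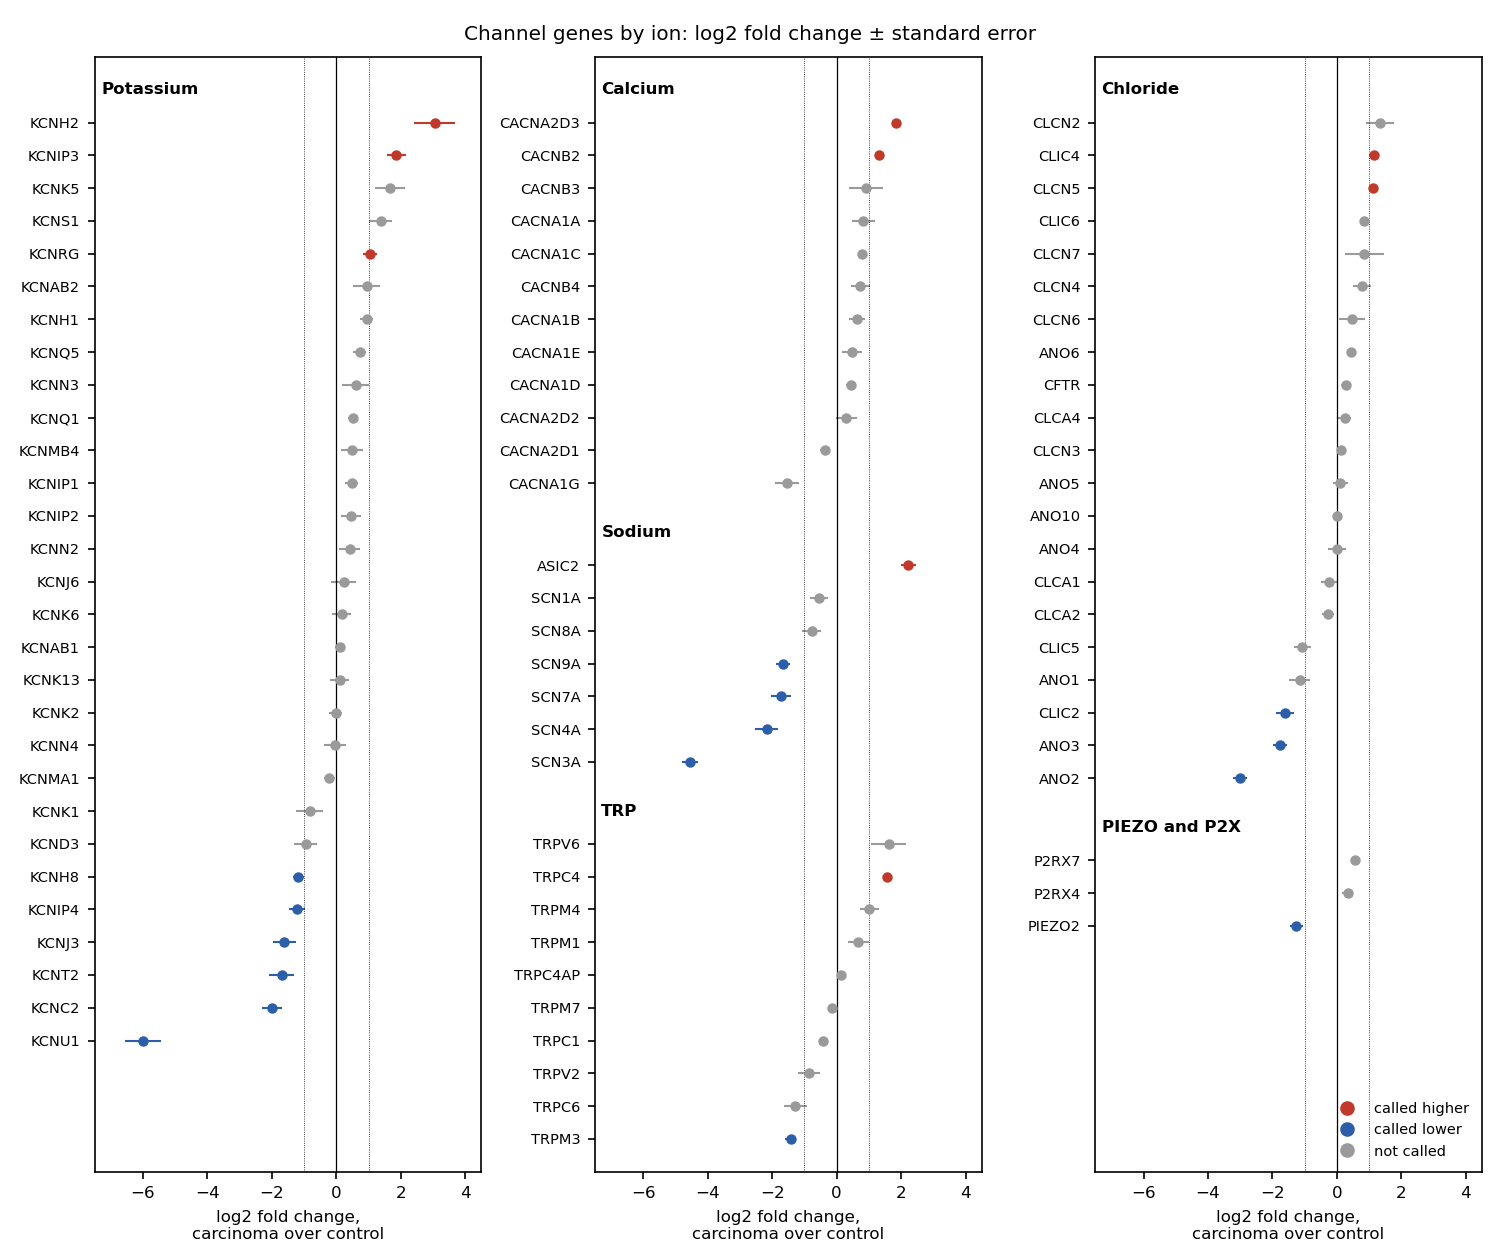
Log2 fold change of carcinoma over control (x axis) with its standard error for 82 of the 83 channel genes, grouped by ion. Red points were called higher, blue points lower and grey points were not called, and dotted lines mark an absolute log2 fold change of 1. All 6 SCN genes lie left of 0, from −4.54 for SCN3A to −0.54 for SCN1A.

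Most measured genes of the SCN family of sodium channels were lower in carcinoma. Of the 6 measured pore-forming subunits 4 were called lower (SCN3A, SCN4A, SCN7A and SCN9A), and 2 did not pass (SCN1A at −0.54 and SCN8A at −0.78 on the log2 scale). Each of the 6 had both carcinoma libraries below both controls. Over all genes, 5.24% were called lower and 28% had both carcinoma libraries below both controls. Summed over the 6 genes, the level was 161 and 168 CPM in the controls and 45.5 and 36.6 CPM in T1 and T2. Their median log2 fold change was −1.70, against 0.03 over all genes.

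SCN3A, which encodes a sodium channel best known from the embryonic nervous system, fell most. Its level was 45.2 CPM in C1 and 45.4 in C2, against 2.09 in T1 and 1.49 in T2, so that the controls were nearly equal and both carcinomas were far below them, T2 on 5 counts. On the log2 scale the difference was −4.54 ± 0.25 (SE, adjusted p = 0.00184), a fall of 23.3-fold. SCN9A, the sodium channel of pain-sensing neurons, stood at 37.5 CPM in C1 and 35.7 in C2, against 12.7 in T1 and 9.81 in T2, without overlap between the groups. It had a log2 fold change of −1.67 ± 0.22 (SE, adjusted p = 0.0102). SCN7A encodes a channel that senses the sodium concentration and does not open to voltage. Levels of SCN7A were 36.8 CPM in C1 and 33.8 in C2, against 12.9 in T1 and 7.44 in T2, with T2 the lowest library. This is a log2 fold change of −1.73 ± 0.30 (SE, adjusted p = 0.0235), and without C1 the adjusted p of edgeR was 0.0746.

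SCN4A encodes the sodium channel that carries the action potential of skeletal muscle. It was measured at 23.0 CPM in C1 and 36.9 in C2, against 5.44 in T1 and 8.33 in T2, so the libraries of pool 2 were higher than those of pool 1 in both tissues. The log2 fold change was −2.17 ± 0.37 (SE, adjusted p = 0.0219), and without T1 the adjusted p of edgeR was 0.0557. Most skeletal muscle markers (10 of 11) were lower in the same libraries. The summed level of the 11 ran from 1974 to 3107 CPM in control and from 44.7 to 75.2 CPM in carcinoma. A single marker gave 1472 CPM of the sum in C1 and 2462 CPM in C2. The 1 marker that was not lower (log2 fold change 0.45, groups overlapping) gave 16.1 CPM in T1 and 41.9 CPM in T2. MB, TNNT3 and MYLPF had 0 counts in T2. Over the 11 measured markers the median change was −5.41 (log2), against −2.17 for SCN4A, and the part of muscle fibers in the SCN4A result was not tested. The nerve and Schwann cell markers, of which several, among them S100B, are not in the tables, summed to 120 to 136 CPM in control and 109 to 171 CPM in carcinoma. This sum hides a difference between markers. Of the 4 measured, 3 overlapped between the groups. The other 1 had both carcinomas below both controls, at a log2 fold change of −1.46, and was not called by edgeR without the block.

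ASIC2, which encodes a sodium channel opened by extracellular acid, went the other way from the SCN genes. It was at 6.03 CPM in C1 and 5.80 in C2, against 24.8 in T1 and 31.2 in T2, both carcinomas well above both controls. The rise was 4.68-fold, a log2 fold change of 2.23 ± 0.25 (SE, adjusted p = 0.00651).

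**Figure D2:**
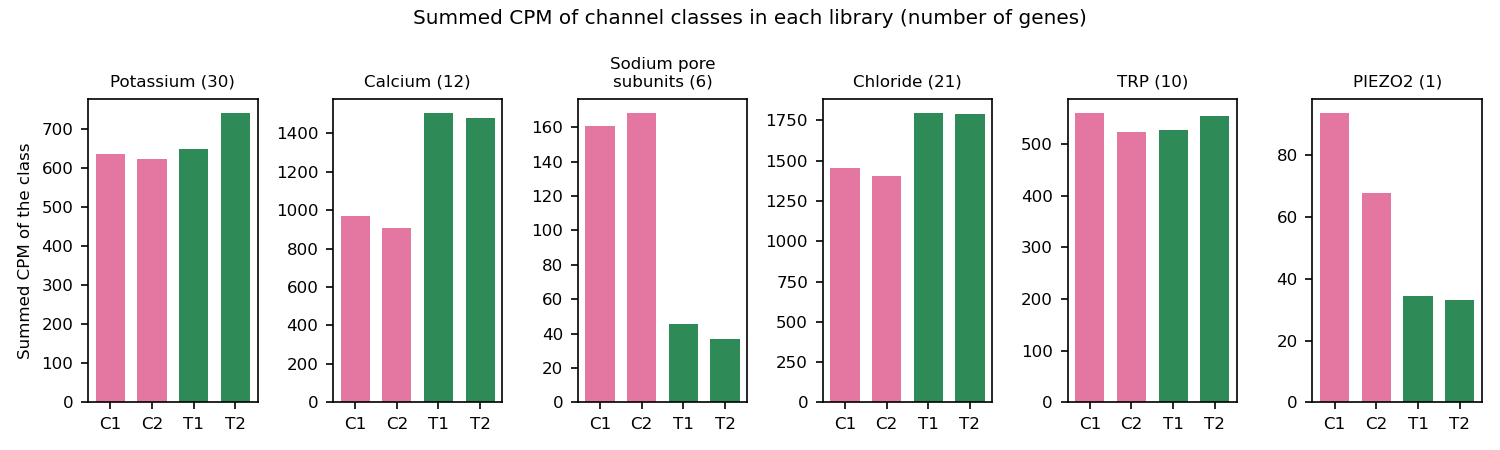
Summed CPM (y axis, not divided by gene length) of the genes of a channel class in each library, controls in pink and carcinomas in green, with the number of genes in brackets. The 6 sodium pore subunits summed to 161 and 168 CPM in the controls and to 45.5 and 36.6 CPM in the carcinomas. The calcium channel genes summed to more in both carcinomas, mostly through CACNA1C and CACNA2D3.

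Of the 12 calcium channel genes, 2 were called higher (4.62% of all genes) and none lower (5.24% of all genes) in edgeR, and 10 were not called. With the replicate block edgeR called 1 of them lower, and DESeq2 also called 1 lower. Both genes that rose encode auxiliary subunits, which carry the pore to the membrane and tune its gating. CACNA2D3, an alpha2delta subunit, was at 72.2 CPM in C1 and 78.8 in C2, against 272 in T1 and 269 in T2. Its 2 controls and its 2 carcinomas each lay close together, and the log2 fold change was 1.84 ± 0.11 (SE, adjusted p = 0.00197). CACNB2, a cytoplasmic beta subunit, stood at 39.7 CPM in C1 and 39.6 in C2, against 99.6 in T1 and 95.8 in T2, a rise of 2.46-fold. For this gene the log2 fold change was 1.30 ± 0.11 (SE, adjusted p = 0.00383). Both calls held when any single library was left out.

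No pore-forming calcium channel subunit was called among 6 measured (edgeR, 3 at an unadjusted p under 0.05). CACNA1C, the L-type channel of heart and smooth muscle, was higher by a smaller step, at 482 CPM in C1 and 443 in C2, against 797 in T1 and 801 in T2. Its log2 fold change of 0.79 ± 0.11 (SE, adjusted p = 0.0130) passed the test but not the fold limit. CACNA1C overlaps DCP1B in RefSeq, which averaged 79.3 CPM in control and 93.0 in carcinoma, so these genes may share reads. CACNA1D, another L-type channel, had a log2 fold change of 0.44 ± 0.16 (SE, adjusted p = 0.153). CACNA1G, which encodes a T-type channel that opens at low voltage, had the lowest log2 value of the 12, with levels of 8.67 CPM in C1 and 13.7 in C2, against 3.35 in T1 and 4.46 in T2. It did not pass, with a log2 fold change of −1.54 ± 0.38 (SE, adjusted p = 0.0615), and was called lower with the replicate block (edgeR, adjusted p = 6.01e-11) and by DESeq2 (adjusted p = 0.0354). CACNA2D1, the alpha2delta subunit of skeletal muscle and nerve, had a log2 fold change of −0.35 ± 0.15 (SE, adjusted p = 0.217). Among the others, the log2 values ran from 0.30 for CACNA2D2 through 0.47 for CACNA1E, 0.64 for CACNA1B, 0.73 for CACNB4 and 0.83 for CACNA1A to 0.90 for CACNB3, and none passed in edgeR or DESeq2. Together the 12 genes summed to 971 and 907 CPM in the controls and 1503 and 1481 CPM in T1 and T2. Most of this rise came from CACNA1C, which was not called, and CACNA2D3 (72.2 and 78.8 CPM in C1 and C2, 272 and 269 in T1 and T2). Both carcinomas lay above both controls for 8 of the 12, and for 29.6% of all genes.

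Potassium channel genes went both ways, with 3 of 30 higher, 6 lower and 21 not called. Over all genes, 4.62% were called higher and 5.24% lower. The median log2 fold change of the 30 potassium channel genes was 0.19. The largest fall of all channel genes was that of KCNU1, a pH-sensitive potassium channel known mainly from sperm. KCNU1 was at 33.9 CPM in C1 and 25.7 in C2, against 0.544 in T1 and 0 in T2. This corresponds to 1001 and 111 counts in the controls, 19 in T1 and 0 in T2, so KCNU1 was still counted in T1, above the limit of that library, and was not detected in T2. On the log2 scale the difference was −6.01 ± 0.56 (SE, adjusted p = 0.00443). The related sodium-activated channel KCNT2 was also lower, at 31.5 CPM in C1 and 21.1 in C2, against 10.1 in T1 and 5.35 in T2, with a log2 fold change of −1.70 ± 0.38 (SE, adjusted p = 0.0488). The KCNT2 call was lost in edgeR without C1 (adjusted p = 0.181), with total counts as the only scaling (adjusted p = 0.0518) and with at least 10 counts required in every library (adjusted p = 0.0566). KCNMA1, the large-conductance calcium-activated channel of smooth muscle and many epithelia, overlapped between the groups at 53.5 CPM in C1 and 59.3 in C2, against 53.7 in T1 and 42.2 in T2. The small-conductance and intermediate channels KCNN2, KCNN3 and KCNN4 did not pass, with log2 values of 0.41, 0.60 and −0.04.

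Of 9 voltage-gated pore subunits, 1 was higher and 2 were lower, against 4.62% and 5.24% of all genes. KCNH2, whose channel ends the cardiac action potential and is also made by several tumors, rose from a low level. It was at 0.745 CPM in C1 and 1.62 in C2, against 5.47 in T1 and 11.9 in T2, or 22 and 7 counts in the controls and 191 and 40 in the carcinomas. The log2 fold change of 3.04 ± 0.63 (SE, adjusted p = 0.0375) carried a wide error, and the adjusted p of edgeR was 0.187 without C1 and 0.0605 with total counts as the only scaling. KCNH8, a slowly activating channel of the same family, fell, at 49.6 CPM in C1 and 48.2 in C2, against 22.9 in T1 and 19.6 in T2, a log2 fold change of −1.19 ± 0.17 (SE, adjusted p = 0.0131), and 0.0614 was its adjusted p in edgeR without C1. KCNC2, a fast channel of rapidly firing neurons, fell 3.99-fold, from 13.4 CPM in C1 and 14.1 in C2, against 3.86 in T1 and 2.68 in T2. This is a log2 fold change of −2.0 ± 0.31 (SE, adjusted p = 0.0168), and the adjusted p of edgeR was 0.0512 without C1. KCNQ1, a potassium channel of secretory epithelia and heart, was at 193 CPM in C1 and 172 in C2, against 234 in T1 and 288 in T2. It did not pass, at a log2 fold change of 0.51 ± 0.15 (SE, adjusted p = 0.0931). KCNS1, a silent subunit that modifies other channels, did not pass either, at 1.37 ± 0.35 (SE, adjusted p = 0.0680), and was called higher with the replicate block (edgeR, adjusted p = 4.33e-07). KCND3 and KCNQ5 did not pass (log2 values of −0.96 and 0.72), and KCNH1 passed the test but not the fold limit at 0.93 ± 0.19 (SE, adjusted p = 0.0382). KCNH1 overlaps HHAT in RefSeq, which stood at 97.3 CPM in C1 and 98.8 in C2, against 194 in T1 and 197 in T2. The log2 fold change of HHAT was 1.00 ± 0.10 (SE, adjusted p = 0.00567), and reads of one of these genes counted for the other cannot be told apart in the counts.

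Among 8 auxiliary and regulatory potassium channel genes, 7 had both carcinomas above both controls and 1 had both below. Over all genes these shares were 29.6% and 28%. Of the 8, 2 were called higher and 1 lower, against 4.62% and 5.24% of all genes. KCNIP3, which encodes a calcium-binding protein that serves both as a channel subunit and as a repressor of transcription, was at 7.11 CPM in C1 and 7.19 in C2, against 21.1 in T1 and 31.5 in T2. Its log2 fold change was 1.86 ± 0.29 (SE, adjusted p = 0.0166), and leaving out C1 gave an adjusted p of 0.0818 in edgeR. KCNRG, whose protein hinders the assembly of potassium channels, was at 14.6 CPM in C1 and 12.1 in C2, against 28.3 in T1 and 26.8 in T2, a log2 fold change of 1.03 ± 0.21 (SE, adjusted p = 0.0374). KCNRG overlaps another protein-coding gene in RefSeq, so the 2 genes may share reads. With the replicate block its log2 fold change was 0.99, under the fold limit, and leaving out any one library gave it an adjusted p between 0.0885 and 0.179 in edgeR. KCNIP4, a sister gene of KCNIP3, was lower, at 23.1 CPM in C1 and 18.5 in C2, against 9.19 in T1 and 8.62 in T2. The log2 fold change was −1.23 ± 0.24 (SE, adjusted p = 0.0329), and adjusted p-values of edgeR without one library lay between 0.0627 and 0.200. KCNAB1 and KCNIP1 did not pass, with log2 fold changes of 0.12 ± 0.16 (SE, adjusted p = 0.672) and 0.47 ± 0.19 (SE, adjusted p = 0.194). Nor did KCNAB2, KCNIP2 and KCNMB4, at 0.95, 0.44 and 0.49.

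Inward rectifiers and two-pore-domain channels were represented by 2 and 5 genes. KCNJ3, a subunit of the channel that G proteins open, was low in all libraries and lower in carcinoma, at 5.69 CPM in C1 and 5.10 in C2, against 2.00 in T1 and 1.19 in T2. It had 4 counts in T2, and its log2 fold change was −1.62 ± 0.36 (SE, adjusted p = 0.0457). The call was lost in DESeq2 (adjusted p = 0.132) and with total counts as the only scaling (edgeR, adjusted p = 0.0521), and leaving out any one library in edgeR gave between 0.0810 and 0.190. Its partner subunit KCNJ6 had a log2 fold change of 0.22 ± 0.38 (SE, adjusted p = 0.744), with a positive ratio in pool 1 (0.65) and a negative one in pool 2 (−0.46). None of the two-pore-domain genes was called by edgeR (1 at an unadjusted p under 0.05). The stretch-sensitive KCNK2 stood at 22.9 CPM in C1 and 27.4 in C2, against 23.6 in T1 and 25.9 in T2, and KCNK6 had a log2 fold change of 0.16 ± 0.30 (SE, adjusted p = 0.767). KCNK1 and KCNK13 stood at −0.83 and 0.10 on the log2 scale. KCNK5, an alkali-activated channel of epithelia, was at 3.45 CPM in C1 and 6.49 in C2, against 11.3 in T1 and 19.0 in T2, with a log2 fold change of 1.65 ± 0.46 (SE, adjusted p = 0.0853). KCNK5 was called higher with the replicate block (edgeR, adjusted p = 9.66e-17) and by DESeq2 (adjusted p = 0.0229).

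**Figure D3:**
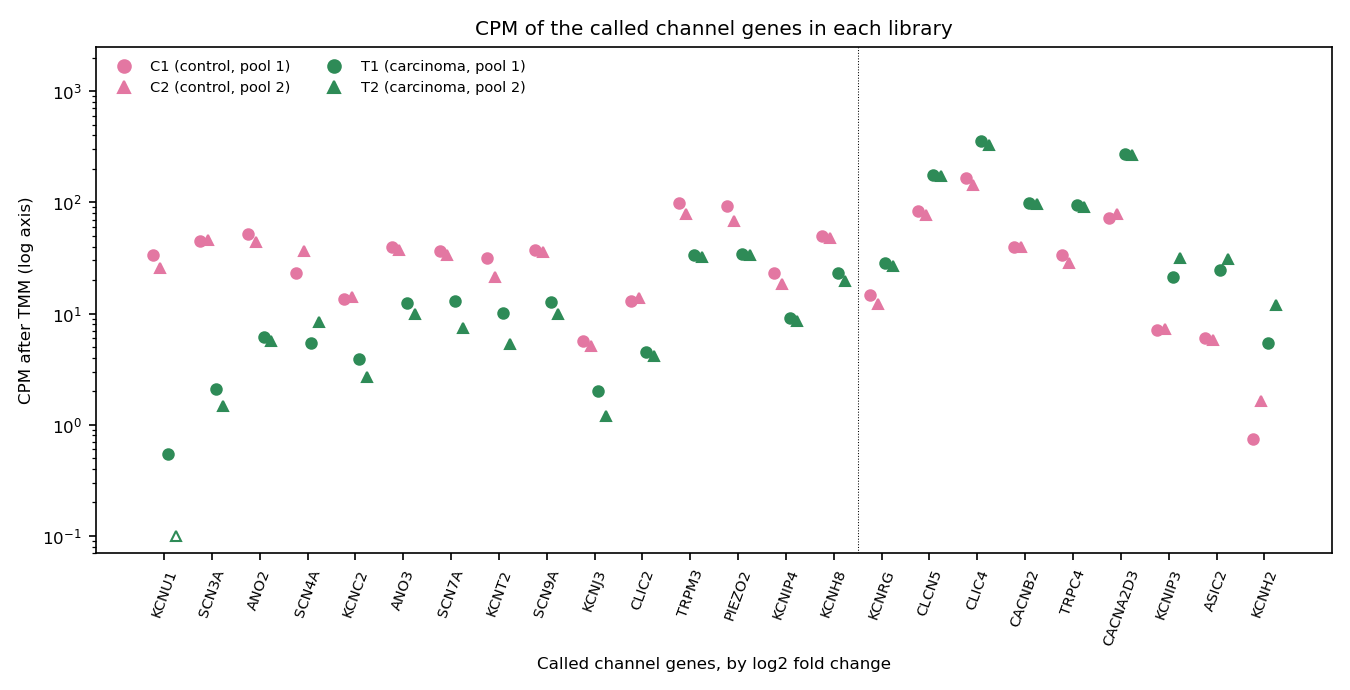
CPM (log axis) of the 24 called channel genes in each library, ordered by log2 fold change, with controls in pink and carcinomas in green (pool 1 as circles, pool 2 as triangles). The dotted line parts the 15 lower genes from the 9 higher ones, and the hollow triangle is a count of 0 (KCNU1 in T2), drawn at 0.1 CPM. No called gene has overlapping groups.

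Chloride channel genes were divided by family. Of the 7 anoctamins 2 were lower and none was higher (edgeR, 4 at an unadjusted p under 0.05 in either direction, none higher by DESeq2). Among all genes, 5.24% were called lower and 4.62% higher. ANO2, the calcium-activated chloride channel of olfactory neurons and photoreceptors, fell 8.02-fold. It was at 51.6 CPM in C1 and 44.3 in C2, against 6.18 in T1 and 5.65 in T2, a log2 fold change of −3.0 ± 0.21 (SE, adjusted p = 0.00258). ANO3, a relative found mainly in neurons, stood at 39.5 CPM in C1 and 37.1 in C2, against 12.4 in T1 and 9.81 in T2, with a log2 fold change of −1.76 ± 0.21 (SE, adjusted p = 0.00846). ANO3 overlaps MUC15 in RefSeq, a gene not in these tables. Both calls held without any single library.

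ANO1 encodes the calcium-activated chloride channel of secretory epithelia and is often amplified in carcinomas. It was at 74.8 CPM in C1 and 121 in C2, against 35.1 in T1 and 53.8 in T2, both carcinomas below both controls, with pool 2 above pool 1 in each tissue. ANO1 did not pass, at a log2 fold change of −1.16 ± 0.32 (SE, adjusted p = 0.0809). It was called lower with the replicate block (edgeR, adjusted p = 4.47e-33), by DESeq2 (adjusted p = 0.00241), and in edgeR without C1 (adjusted p = 0.0322) or without T2 (adjusted p = 0.00766). The lipid scramblase gene ANO6 and the intracellular ANO10 had log2 fold changes of 0.44 ± 0.13 (SE, adjusted p = 0.105) and 0.01 ± 0.11 (SE, adjusted p = 0.977). ANO4 and ANO5 were at −0.0012 and 0.11 on the log2 scale and did not pass. For ANO10 the levels were 277 CPM in C1 and 265 in C2, against 277 in T1 and 267 in T2.

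The CLCN family had 1 of 6 genes called higher and none lower (edgeR, 3 at an unadjusted p under 0.05, all with positive values, none lower by DESeq2). Of all genes, 4.62% were called higher, and 3211 of 11277 had an unadjusted p under 0.05 in edgeR. All 6 log2 fold changes of the family were positive, as were 5921 of the 11277. CLCN5, a chloride-proton exchanger of endosomes, was at 83.8 CPM in C1 and 76.3 in C2, against 175 in T1 and 173 in T2. The rise was 2.17-fold, a log2 fold change of 1.12 ± 0.11 (SE, adjusted p = 0.00503), and it held without any single library. A cluster of miRNA genes lies within CLCN5 in RefSeq. CLCN2, a channel of the plasma membrane, was at 5.72 CPM in C1 and 11.8 in C2, against 17.4 in T1 and 25.3 in T2, higher in both carcinomas but with controls that differed between pools. It did not pass, at 1.33 ± 0.44 (SE, adjusted p = 0.123), and was called with the replicate block (edgeR, adjusted p = 2.17e-19), by DESeq2 (adjusted p = 0.0485) and in edgeR without C2 (adjusted p = 0.0421). CLCN3, another vesicle exchanger, had a log2 fold change of 0.12 ± 0.11 (SE, adjusted p = 0.508), and CLCN4, CLCN6 and CLCN7 did not pass at 0.77, 0.46 and 0.85. For CLCN6 and CLCN7 the groups overlapped.

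In the CLIC family, proteins that exist both free in the cytoplasm and in membranes, CLIC4 was higher and CLIC2 lower. CLIC4, described in the stroma of tumors and in endothelial tube formation, was at 166 CPM in C1 and 145 in C2, against 356 in T1 and 326 in T2, a log2 fold change of 1.13 ± 0.13 (SE, adjusted p = 0.00669). CLIC2 stood at 13.1 CPM in C1 and 13.9 in C2, against 4.52 in T1 and 4.16 in T2. It fell 3.07-fold, a log2 fold change of −1.62 ± 0.27 (SE, adjusted p = 0.0208), and the adjusted p lay between 0.0676 and 0.0906 in edgeR when one library was left out. The blood endothelial markers, which summed to 688 and 705 CPM in the controls, summed to 316 and 313 CPM in the carcinomas, and their part in the CLIC results was not tested. CLIC6 passed the test but not the fold limit, at 68.4 CPM in C1 and 79.3 in C2, against 124 in T1 and 142 in T2, with a log2 fold change of 0.85 ± 0.14 (SE, adjusted p = 0.0185). CLIC5, which links membranes to the actin cytoskeleton, had a log2 fold change of −1.07 ± 0.27 (SE, adjusted p = 0.0672) and was called lower with the replicate block (edgeR, adjusted p = 2.75e-13).

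CFTR, the cyclic AMP-regulated chloride channel of epithelia, did not pass. It was at 44.9 CPM in C1 and 40.6 in C2, against 55.2 in T1 and 47.6 in T2, a log2 fold change of 0.27 ± 0.15 (SE, adjusted p = 0.324). CLCA1 and CLCA2, whose products regulate other chloride channels, did not pass either, with log2 fold changes of −0.24 ± 0.24 (SE, adjusted p = 0.562) and −0.28 ± 0.18 (SE, adjusted p = 0.366). The third gene of the family, CLCA4, stood at 0.25 ± 0.20 (SE, adjusted p = 0.475). Over all 21 chloride channel genes the median was 0.12, and the summed level was 1453 and 1403 CPM in the controls and 1794 and 1789 CPM in T1 and T2.

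Of the 10 TRP genes, TRPC4 was higher, TRPM3 was lower and 8 did not pass. That is 20% called, against 9.86% of all genes. TRPC4, a cation channel opened downstream of receptors coupled to G proteins, was at 33.5 CPM in C1 and 28.5 in C2, against 94.9 in T1 and 91.0 in T2. Its groups did not overlap, and the log2 fold change was 1.57 ± 0.14 (SE, adjusted p = 0.00399). TRPM3, a channel opened by heat and by the steroid pregnenolone sulfate, stood at 98.8 CPM in C1 and 78.4 in C2, against 33.7 in T1 and 32.1 in T2, a log2 fold change of −1.43 ± 0.16 (SE, adjusted p = 0.00690). Both calls held without any single library. The gene of the miRNA MIR204 lies within TRPM3 in RefSeq. TRPM7, which joins a magnesium-permeable channel to a kinase, was at 238 CPM in C1 and 208 in C2, against 206 in T1 and 202 in T2. It did not pass, at −0.13 ± 0.12 (SE, adjusted p = 0.521), and the adaptor gene TRPC4AP was at 0.12 ± 0.13 (SE, adjusted p = 0.577). TRPC1, TRPM1, TRPM4 and TRPV2 did not pass either, with log2 values of −0.42, 0.67, 1.01 and −0.87.

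A pair of TRP genes was called by edgeR with the replicate block but by neither edgeR nor DESeq2 without it. TRPV6, the calcium-selective channel of transporting epithelia, was at 2.37 CPM in C1 and 5.33 in C2, against 7.81 in T1 and 14.6 in T2, with pool 2 above pool 1 in each tissue. It had a log2 fold change of 1.61 ± 0.56 (SE, adjusted p = 0.138), and with the block edgeR gave an adjusted p of 1.46e-12. TRPC6, a channel opened by diacylglycerol, was at 5.35 CPM in C1 and 3.71 in C2, against 1.97 in T1 and 1.78 in T2, or 6 counts in T2. Its log2 fold change was −1.28 ± 0.35 (SE, adjusted p = 0.0785), and with the block the adjusted p was 4.20e-07 in edgeR but 0.0578 in DESeq2, so that only edgeR called it there.

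PIEZO2, the stretch-gated channel of touch receptors, was lower in carcinoma, while the P2X receptors, cation channels opened by extracellular ATP, did not pass. PIEZO2 was at 93.6 CPM in C1 and 67.9 in C2, against 34.5 in T1 and 33.3 in T2, with both carcinomas at nearly the same level. It had a log2 fold change of −1.26 ± 0.19 (SE, adjusted p = 0.0158), and without C1 the adjusted p of edgeR was 0.0508. P2RX7, a receptor of macrophages and other immune cells, was at 41.5 CPM in C1 and 40.8 in C2, against 60.8 in T1 and 59.8 in T2. Both carcinomas were above both controls, and the log2 fold change was 0.55 ± 0.13 (SE, adjusted p = 0.0519). Macrophage markers summed to 506 and 515 CPM in the controls and to 339 and 361 CPM in the carcinomas. The markers did not move alike. Of the 7 measured, 1 was called lower, from a mean of 226 CPM to 110 CPM, and 4 overlapped between the groups. P2RX4 had a log2 fold change of 0.34 ± 0.18 (SE, adjusted p = 0.286).

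The direction of change was mostly shared by both sets of dogs. Of the 83 genes 74 had ratios of carcinoma to control of the same sign in pool 1 and in pool 2, 89.2%, against 84.5% of all genes. Across the 83 genes the log2 ratios of the pools correlated at 0.970 and across all genes at 0.933. These values are across genes, which are not independent replicates, and the ratios of a pool share its libraries and their depth. The ratio of KCNU1 was −5.93 in pool 1 and −7.44 in pool 2, the second set by a count of 0 and the added 0.5 counts. For SCN3A the ratios were −4.43 and −4.80, and for ASIC2 they were 2.03 and 2.41. With a replicate block for the pool 31 channel genes were called, or 37.3% against 13.9% of all genes. Of the 83 channel genes 12 were higher with the block, against 800 of all 11277 genes (7.09%). Lower were 19 of the 83, against 770 of all 11277 genes (6.83%). Of the 31, 23 were also called without the block.

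**Figure D4:**
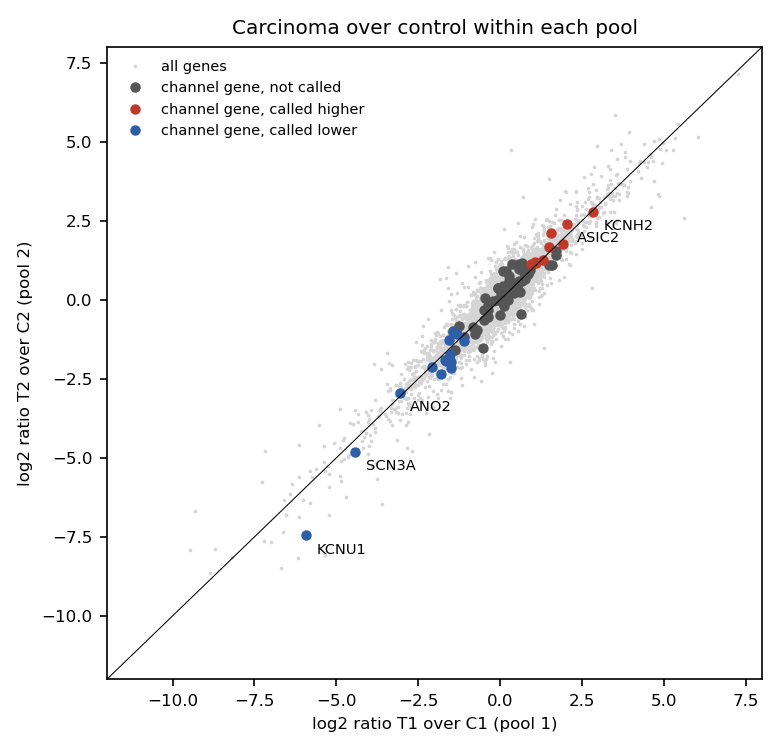
Log2 ratio of T1 to C1 (pool 1, x axis) against that of T2 to C2 (pool 2, y axis), computed after adding 0.5 counts, with 1 point per gene. Channel genes are drawn in red (higher), blue (lower) or dark grey (not called) over all genes in light grey, and they lie along the diagonal, from KCNU1 at the lower left to KCNH2 at the upper right.

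Ion pumps, calcium stores, cotransporters and channels outside the name pattern were together called about as often as genes at large. Of their 69 measured genes, 3 were higher and 5 lower, 11.6% against 9.86%. The lists differed, with 26.7% of 15 pump genes and 13.3% of 15 calcium store genes called. Shares were 6.67% for 15 cotransporter and exchanger genes and 4.17% for the 24 channel genes outside the name pattern. ATP1B1, a beta subunit of the sodium pump, rose. It was at 193 CPM in C1 and 163 in C2, against 514 in T1 and 457 in T2, a log2 fold change of 1.44 ± 0.14 (SE, adjusted p = 0.00494). SCNN1A, a subunit of the epithelial sodium channel, also rose, at 15.3 CPM in C1 and 17.2 in C2, against 60.9 in T1 and 59.5 in T2, with a log2 fold change of 1.90 ± 0.16 (SE, adjusted p = 0.00371). Of the 15 measured genes of calcium stores and store-operated entry, 2 were lower and none was higher in edgeR (1 higher by DESeq2 and 1 with the replicate block), with a median log2 fold change of −0.03. TRDN, which encodes triadin of the calcium release complex, was at 32.6 CPM in C1 and 42.0 in C2, against 1.09 in T1 and 1.49 in T2, a log2 fold change of −4.97 ± 0.31 (SE, adjusted p = 0.00209). ATP2A1, the calcium pump of fast muscle fibers and itself one of the muscle markers above, had a log2 fold change of −2.81 ± 0.51 (SE, adjusted p = 0.0269), and without T1 edgeR gave an adjusted p of 0.0570. RYR2, a calcium release channel known from heart, was at 326 CPM in C1 and 274 in C2, against 114 in T1 and 105 in T2, with a log2 fold change of −1.46 ± 0.14 (SE, adjusted p = 0.00465). SLC8A3, a sodium-calcium exchanger, had a log2 fold change of −2.30 ± 0.23 (SE, adjusted p = 0.00532).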

How the data were processed

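RNA-seq libraries of mammary ductal carcinoma and adjacent non-tumor tissue, 2 of each, were used. The authors deposited raw counts per gene, whole numbers with no normalization. Libraries were made with a stranded total RNA kit. For alignment and counting, TopHat2 and HTSeq are named in the paper but STAR and featureCounts in the submitters' processing notes, and which made the files is unknown. The paper gives default settings for HTSeq, with no strand setting named for featureCounts and no genome build (not given in the sources used here). A second deposited column, of other unit, holds gene lengths. For 53 of 82 channel genes with a RefSeq entry it lies within 20% of the gene span with introns, so intronic reads may be counted, and levels were not divided by it. Overlapping or antisense genes may share reads. RefSeq (UU_Cfam_GSD_1.0) was used for names and neighbors only.

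Counts were filtered (filterByExpr), scaled by TMM and tested with the quasi-likelihood test of edgeR 4.0.16 in R 4.3.3, with Benjamini-Hochberg adjustment over 11277 genes. DESeq2 1.42.0 was an alternative, as were other scalings and filters, a replicate block and leaving out each library. Each SE was derived from the log2 fold change and its F statistic. Figures were drawn with matplotlib 3.10.9. The test behind the calls used no block. The pool number pairs libraries of the same dogs by the paper's account. Over genes, the departures of C1 and T1 from their group means had a correlation of 0.782, and those of C2 and T2 only mirror them. Pool number also went with depth, as C1 (32352002 counts) and T1 (35496260) were far deeper than C2 (4027367) and T2 (3236218). The pools differed in the mean age of their dogs too, the paper states. Shared dogs, depth and age cannot be told apart in this correlation. By the paper's account RNA was pooled after extraction, so single animals were not separate in the libraries. Without the block, p-values measure the spread between pools. With the block, they measure how far the ratio of carcinoma to control differs between pools. The spread that edgeR shared over genes (common dispersion) was 0.00216 with the block, against 0.0508 without it.

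The members and lists were chosen with earlier results of these data known. Genes were named by a rule: every called channel gene, the 2 of each class with the most counts, those called by edgeR with the replicate block but not without it, and up to 4 called genes of each partner list. The other channel genes, marker genes with a count of 0, genes not in the tables and overlapping genes were named after values were seen, to account for the members. A few genes are not reported here by name, though the counts and sums include them.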

Additional observations from a re-analysis of the deposited data

How the results depend on the processing

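Of the 24 called channel genes, 12 stayed called in every alternative that tested them, 12 were lost without at least 1 library, and none changed sign. Leaving out 1 library gave 6 to 9 channel genes higher and 8 to 13 lower, 342 to 509 and 421 to 548 over all genes, and 3 to 4 and 4 to 5 of the partner genes. A fit without 1 library assumes that the lone library of its group varies like the other group. With the replicate block 800 of all genes were higher in edgeR, and 8 partner genes were higher (7 in DESeq2). The block gained 8 channel genes and lost KCNRG. With any fold change allowed, 782 of all genes and 5 partner genes were higher. With at least 10 counts in every library, 2 partner genes were lower, since this filter tests fewer genes. DESeq2 called 27 channel genes, 23 of them shared with edgeR. The sign changed only for genes that did not pass. ANO10 (0.01) had −0.013 with DESeq2 size factors in edgeR, −0.0030 with at least 10 counts, −0.012 in DESeq2, −0.012 in DESeq2 with the replicate block, and −0.064 to 0.032 without 1 library. KCNK2 (−0.02) had 0.0060 by total counts, 0.018 with the replicate block and −0.20 to 0.11 without 1 library. Without 1 library CLCA1 ranged from −0.48 to 0.026, KCNJ6 from −0.19 to 0.47, KCNK6 from −0.14 to 0.42 and TRPC4AP from −0.025 to 0.22. The causes were not tested. Of the 83 channel genes, 41 had under 50 counts in at least 1 library, as had 15 of the 24 called, so depth in pool 2 limits small differences.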

Other observations

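The channel genes were long compared with the genes of the tables. By the length column of the tables, their median was 96260 bases, against 31689 over all genes. It was 119272 bases for those higher in carcinoma, 144075 for those lower and 81314 for those not called. Of the 83 genes, 17 overlap another protein-coding gene in RefSeq, among them 3 called ones (CACNA2D3, ANO3 and KCNRG). The sodium channel genes SCN9A and SCN7A, both lower in carcinoma, are direct neighbors in RefSeq, with SCN1A close by on the other side of SCN9A. The CLCA4, CLCA1 and CLCA2 genes also follow each other, and none of them was called by edgeR or DESeq2 (edgeR, 0 at an unadjusted p under 0.05). These neighbors were looked up after their values had been seen.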
